A study of Sinopodophyllum hexandrum with 2 samples.

Results

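Of the 116 predicted miRNA loci with a position on a transcript, 44 lay on the minus strand of their transcript and 72 on the plus strand. The members were chosen by the strand written in each locus name of the authors' count table, a rule that uses no read count, though the strand was picked for description with earlier results of these data known. The data come from mature leaves of Sinopodophyllum hexandrum (also called Podophyllum hexandrum), the Himalayan herb whose lignan podophyllotoxin is the starting material of anticancer drugs. Small RNAs of total RNA were sequenced in 2 libraries, 1 of a treated leaf sample and 1 of a control leaf sample. The sources used here do not name the agent, dose or duration of the treatment, nor say whether plants were pooled. The stated aim was to find miRNAs not annotated before. Each group has 1 library, so no difference between treated and control leaf was checked against replicates. The intervals below cover counting error alone and speak of the 2 libraries, not of the treatment.

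A plant miRNA is cut by a Dicer-like enzyme from a hairpin, a stretch of RNA that folds back on itself, and is then loaded into an Argonaute protein that represses transcripts with a matching site. A hairpin can only be cut from the strand that is transcribed, since its reverse complement is another molecule. A small RNA read carries the strand of its source, and a locus on the minus strand is one whose hairpin reads as the reverse complement of the transcript as the authors' set writes it. The sources used here do not say whether that set keeps the strand of the RNA. A transcript assembled without strand information can be written in either orientation, so the minus strand cannot be read here as antisense to a gene. The table pairs the loci with no gene names and no sequences, and positions are those of the authors' transcripts, so no gene, exon or genome position can be given.

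The minus-strand loci were thinly covered apart from a few. Of the 44 loci, 23 (52.3%, exact 95% interval 36.7% to 67.5%) rested on 1 read in all, against 15 of the 72 plus-strand loci (20.8%, 12.2% to 32.0%). At least 10 reads summed over both libraries were present at 11 minus-strand loci (25.0%, 13.2% to 40.3%) and at 37 plus-strand loci (51.4%, 39.3% to 63.4%). At least 100 reads were present at 2 minus-strand loci and at 16 plus-strand loci. The median was 1 read per minus-strand locus and 11 reads per plus-strand locus, and 4 reads over all 116 loci. Minus-strand loci therefore made up 60.5% of the 38 loci with 1 read, 22.9% of the 48 with at least 10 and 11.1% of the 18 with at least 100, beside 37.9% of all loci. Loci predicted in the same library share its depth and its prediction run, so they are not replicates. The strands are set side by side here as a description, with no test of their difference.

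**Figure D1:**
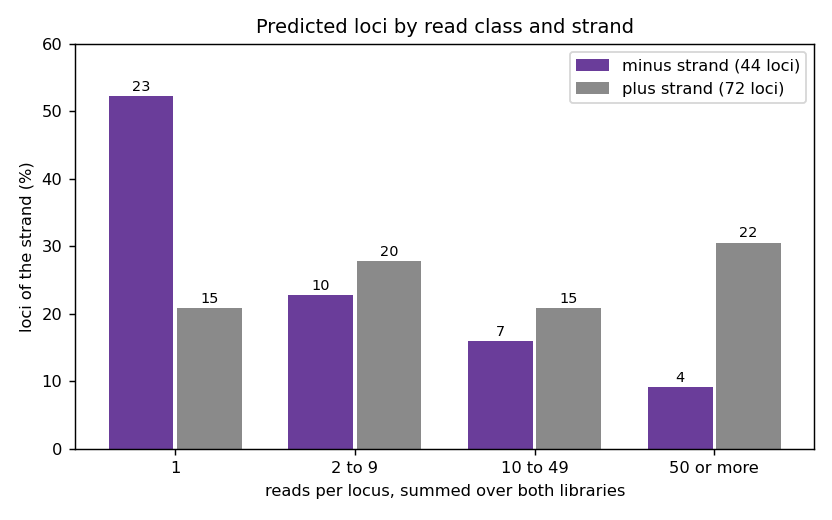
Share of the loci of each strand (vertical axis, percent) by reads per locus summed over both libraries (horizontal axis, read classes), with the number of loci above each bar. The minus strand has 23 of 44 loci in the class of 1 read and 4 in that of 50 or more, against 15 and 22 of 72 on the plus strand.

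Thin loci made up a larger share of the minus strand in each library taken alone. In the treated library, 9 of the 25 minus-strand loci with reads (36.0%) had exactly 1, against 5 of 41 plus-strand loci (12.2%). In the control library, 14 of 21 minus-strand loci with reads (66.7%) had exactly 1, against 10 of 38 plus-strand loci (26.3%). The median over loci with reads was 3 reads on the minus strand and 12 on the plus strand in the treated library. In the control library it was 1 read on the minus strand and 10 on the plus strand. The strands differed little in how often a locus had any read in a given library. Every locus had a read in at least 1 library and few had reads in both, so the libraries do not give separate comparisons. In the treated library, reads were present at 56.8% of minus-strand and 56.9% of plus-strand loci, and in the control library at 47.7% of minus-strand and 52.8% of plus-strand loci.

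The reads of the minus strand came from few loci, and its total rested on 1 locus. Plus-strand reads were concentrated too, with 50.5% of the treated and 52.6% of the control ones at transcript_2855. Minus-strand loci held 3603 of the 13445 treated reads over all predicted entries (26.8%, exact 95% interval 26.1% to 27.6%). They held 313 of the 3785 control reads (8.27%, 7.41% to 9.19%). These totals are the reads at predicted entries and not the depth of the libraries, which is unknown. The treated to control ratio of the minus-strand shares was 3.24 (exact conditional 95% interval 2.89 to 3.65), against 0.798 (0.767 to 0.830) for the plus strand. Both depend on the scale: with TMM factors (trimmed mean of M-values, a scaling of the libraries), which rest on loci read in both libraries, they were 6.56 on the minus strand and 1.62 on the plus strand, so the plus-strand direction turned. The sums also hold loci read in 1 library only, for which a 0 may mean that the locus was not counted there. Transcript_3916 alone held 89.4% of the minus-strand treated reads and none of the control reads. Without it, the other 43 minus-strand loci held 383 treated reads (2.85%) and the same 313 control reads, and their ratio was 0.344 (0.296 to 0.401), below 1 instead of above it, and 0.698 with TMM factors. With transcript_3916 also left out of the treated total, the ratio was 0.453 (0.389 to 0.528). These low ratios rested largely on the 2 loci read in both libraries, which held 173 of the 383 treated and 245 of the 313 control reads. The rest held 210 treated reads (1.56%) and 68 control reads (1.80%), and which of these shares is larger depends on the scale. On the plus strand, leaving out its most abundant locus moved the ratio by totals to 0.833 (0.788 to 0.881). With that locus also left out of the totals, the plus-strand ratio was 0.684 (0.647 to 0.724).

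**Figure D2:**
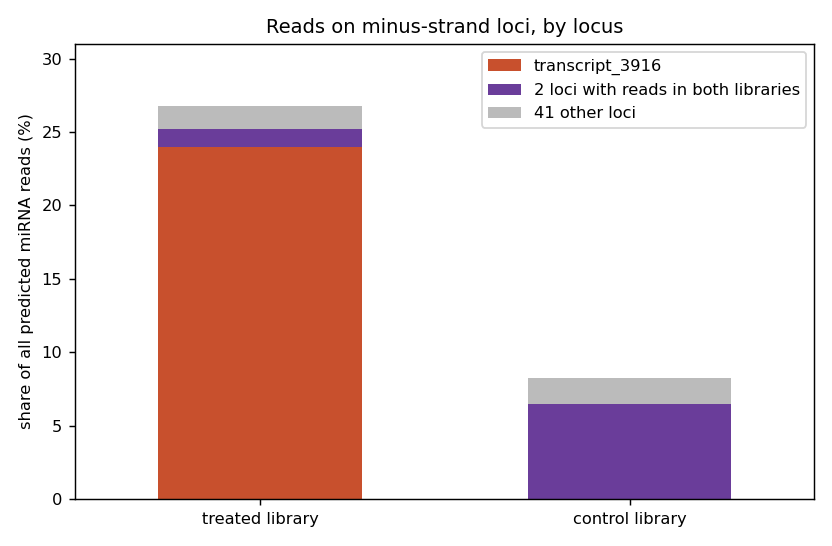
Share of all predicted miRNA reads that fell on minus-strand loci (vertical axis, percent) in the treated and the control library, split into transcript_3916, the 2 loci with reads in both libraries and the 41 other loci. The treated bar reaches 26.8%, almost all of it from transcript_3916, and the control bar reaches 8.27%, most of it from the 2 loci with reads in both.

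The locus on transcript_3916 (28 to 101, span 73 bases) had 3220 reads in the treated library, 23.9% of its predicted miRNA reads, and 0 in the control library. It was the most read of the minus-strand loci, with 9.23 times the reads of the next. The 0 control reads allow a share of up to 0.0793% at a floor of 3 reads per library, used here for any count of 0, and of up to 0.0974% by the exact two-sided 95% limit. The treated share was at least 302-fold higher against the floor, and the exact 95% limit of the ratio was less extreme, at 246-fold. Whether a locus predicted in 1 library was also counted in the other is unknown, so this and every bound below hold only if it was. On the plus strand, 2 of the 3 overlapping pairs of loci were split by library. Transcript_1829 had 186 treated and 0 control reads at 246 to 292 and 0 treated and 50 control reads at 244 to 292, and transcript_23957 had 12 and 0 at 48 to 92 and 0 and 3 at 48 to 93. A 0 at 1 locus can therefore stand beside reads at an almost identical position. No minus-strand loci overlapped. High counts in 1 library alone were also present on the plus strand. Transcript_220 (882 to 930) had 1634 treated reads and transcript_1162 (237 to 323) had 1154, both with 0 control reads. Transcript_21648 (63 to 127) had 204 control reads and 0 treated reads.

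**Figure D3:**
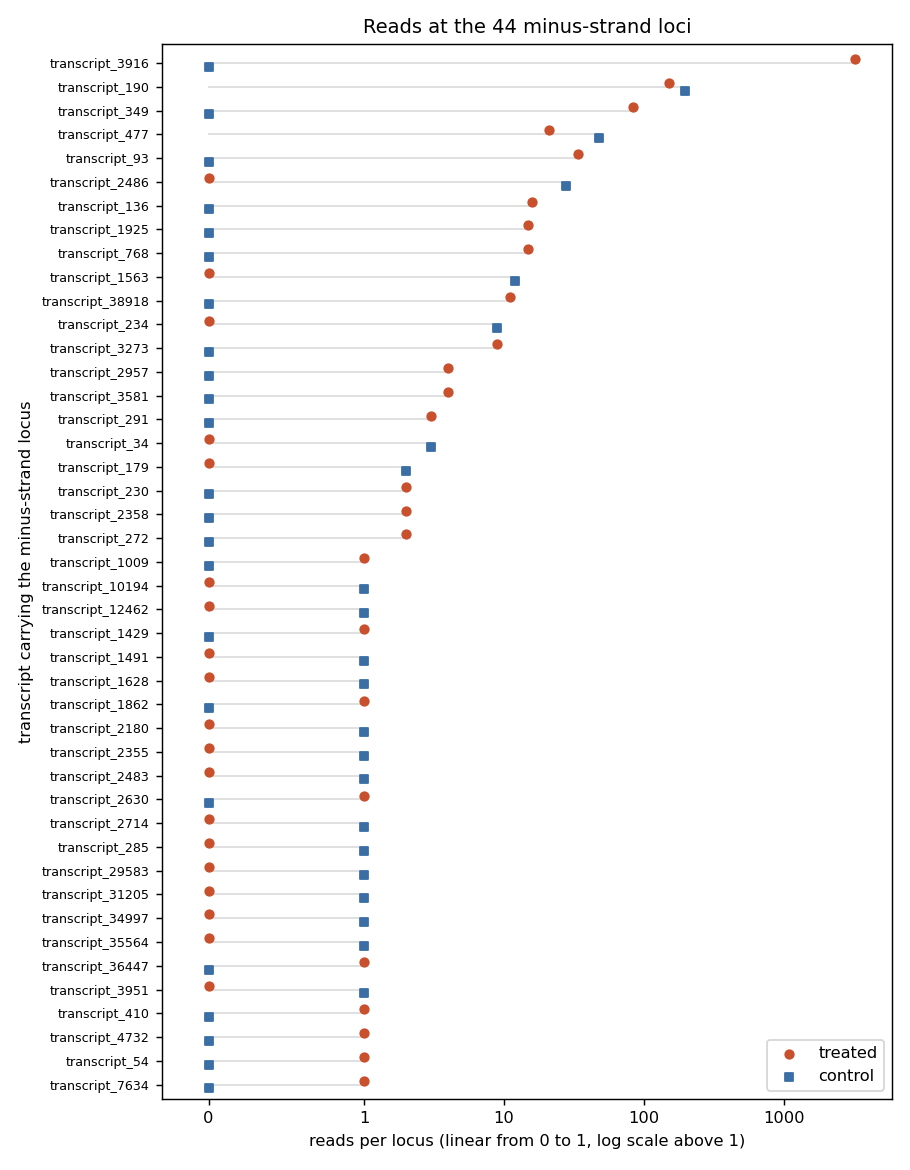
Reads in the treated library (circles) and the control library (squares) at each of the 44 minus-strand loci (vertical axis, named by transcript, ordered by summed reads). The horizontal axis gives reads per locus and is linear from 0 to 1 and logarithmic above. The 2 loci on transcript_190 and transcript_477 have reads in both libraries, and the other 42 have a mark at 0 in 1 of them.

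Reads in both libraries were present at 2 minus-strand loci (4.55%) and 7 plus-strand loci (9.72%). Over all 116 loci the share was 7.76%, and with at least 10 reads it was 18.2% of the 11 minus-strand loci and 18.9% of the 37 plus-strand loci. The minus-strand share was thus near the background. Reads in the treated library only were present at 23 minus-strand loci (52.3%) and 34 plus-strand loci (47.2%), beside 49.1% of all loci. Reads in the control library only were present at 19 minus-strand loci (43.2%) and 31 plus-strand loci (43.1%), beside 43.1% of all loci. Of the 42 minus-strand loci with reads in 1 library, 29 had 3 reads or fewer there. For those both counts were at or under the floor, and no ratio was computed.

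Both minus-strand loci with reads in both libraries had lower shares in the treated library. The locus on transcript_190 (475 to 525, span 50 bases) had 152 treated reads (1.13%) and 197 control reads (5.20%). The ratio of its shares was 0.217 (0.175 to 0.270), and 0.440 (0.354 to 0.546) with TMM factors. It alone held 62.9% of the minus-strand control reads. The locus on transcript_477 (30 to 89, span 59 bases) had 21 treated reads (0.156%) and 48 control reads (1.27%). Its ratio was 0.123 (0.0700 to 0.210), and 0.249 (0.142 to 0.425) with TMM factors. Together they held 4.80% of the treated reads of the minus strand and 78.3% of its control reads.

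Of the 9 loci read in both libraries, these had the lowest ratios, an order that no choice of library scale can change. The 7 plus-strand ratios ran from 0.242 (transcript_1493, interval 0.174 to 0.335) to 1.91 (transcript_1351, 1.18 to 3.28). The interval of transcript_1493 overlapped that of transcript_190 and that of transcript_477. Overlap alone does not settle whether such neighbours in the order differ beyond counting error, and they were not compared directly. The next plus-strand ratio, 0.459 at transcript_3645 (0.323 to 0.656), lay clear of both minus-strand intervals. Summed over the loci of both libraries, the ratio was 0.199 (0.163 to 0.242) on the minus strand and 0.715 (0.681 to 0.750) on the plus strand. The minus-strand ratio was 0.278 times the plus-strand one (0.226 to 0.341), and 0.365 times (0.291 to 0.458) without transcript_2855, the most abundant locus of the table. With 2 loci on the minus strand, this describes these loci and not the strand.

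**Figure D4:**
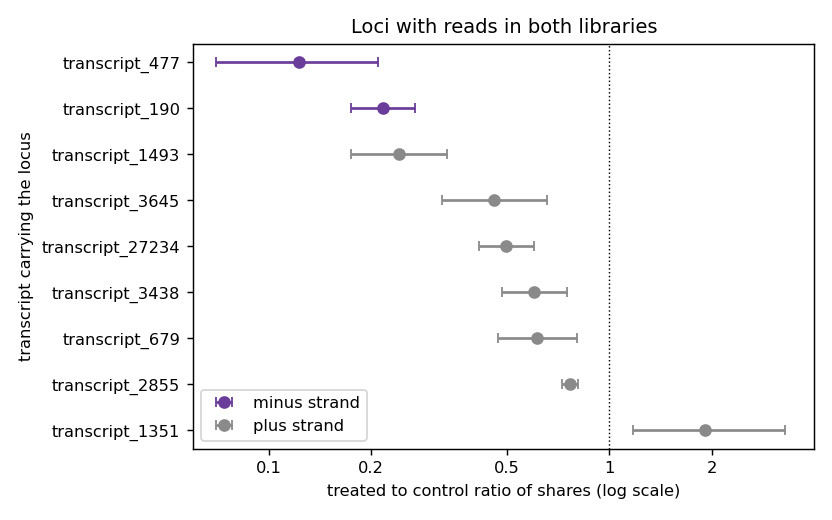
Treated to control ratio of shares (horizontal axis, log scale) at the 9 loci with reads in both libraries (vertical axis, named by transcript), with exact conditional 95% intervals for counting error. The 2 minus-strand loci are at 0.123 and 0.217, below the plus-strand loci, which run from 0.242 to 1.91, and the dotted line marks equal shares.

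A locus was called higher or lower where its ratio was at least 2-fold, its interval excluded 1 and its reads in both libraries summed to 10 or more. By this rule 3 of the 11 minus-strand loci measured (27.3%) were higher in the treated library, beside 31.2% of all 48 loci measured. Another 4 (36.4%) were lower, beside 39.6% of all. With TMM factors 7 of the 11 (63.6%) were higher, beside 54.2% of all, and 4 (36.4%) were lower, beside 35.4% of all. On neither scale are these shares a result about the minus strand. All 3 higher loci had 0 control reads, and a locus read in 1 library only can be called in no other direction. After transcript_3916 they were transcript_349 (461 to 525), with 84 treated reads (0.625%), and transcript_93 (868 to 931), with 34 (0.253%). Against the floor of 3 reads the share of transcript_349 was at least 7.88-fold higher (exact limit 6.27-fold) and that of transcript_93 at least 3.19-fold higher (exact limit 2.46-fold).

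The 4 lower loci were those on transcript_190 and transcript_477 and 2 with no treated reads. Transcript_2486 (84 to 127), the shortest minus-strand locus with a span of 43 bases, had 0 treated reads and 28 control reads (0.740%). Its treated share was at least 33.2-fold lower against the floor, with an exact limit of 25.2-fold (16.4-fold and 12.5-fold with TMM factors). Transcript_1563 (25 to 95) had 0 treated reads and 12 control reads (0.317%), a share at least 14.2-fold lower with an exact limit of 9.87-fold (7.02-fold and 4.87-fold with TMM factors). These 4 were all the minus-strand loci with at least 10 control reads.

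The other 4 minus-strand loci with at least 10 reads were called neither way by totals. These were transcript_136 (869 to 916) with 16 treated reads, transcript_1925 (255 to 338) and transcript_768 (309 to 353) with 15 each, and transcript_38918 (85 to 163) with 11. None had control reads. The treated library had 3.55 times the reads of the control library at predicted entries. By these totals, a locus with treated reads only needed 22 of them to reach 2-fold against the floor. One with control reads only needed the minimum of 10. With TMM factors all 4 of these loci were called higher. The counts of 3 higher and 4 lower therefore do not show which direction was more frequent. Loci with treated reads only, apart from transcript_3916, summed to 210 reads over 22 loci, or 1.56% of the treated library (1.36% to 1.79%). Loci with control reads only summed to 68 reads over 19 loci, or 1.80% of the control library (1.40% to 2.27%), and these intervals overlapped. The treated share keeps the reads of transcript_3916 in its total, and TMM factors move all log2 ratios up by 1.02. Which of these shares is larger therefore depends on the scale.

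The remaining 33 minus-strand loci had under 10 reads and no call. The highest of them were transcript_234 (143 to 188), with 0 treated and 9 control reads, and transcript_3273 (122 to 209), with 9 treated and 0 control reads. Another 8 had 2 to 4 reads, among them transcript_34 (897 to 985) with 3 control reads and transcript_179 (807 to 862) with 2. The other 23 had 1 read, 9 of them in the treated library and 14 in the control library. Transcript_10194 (175 to 242), with 0 treated reads and 1 control read, was one of those 14. A pair among these, on transcript_4732 and transcript_7634, had the same positions, 16 to 67, and 1 treated read each. Without the sequences it is unknown whether the same read was counted at both, and this pair was chosen after its values were seen. On the plus strand transcript_3645 and transcript_830 shared positions 123 to 199, and transcript_2012 and transcript_23957 shared 48 to 93, with unequal counts. Transcript_1636 and transcript_25701 each had a span of 45 bases, 194 treated and 0 control reads. Double counting is unknown for these too, and they were also picked after their values were seen.

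Spans, taken as end minus start, had similar medians on both strands. The median was 62 bases on the minus strand (quartiles 51 and 68.3, range 43 to 88) and 63 on the plus strand (50 and 73.3, range 40 to 87), beside 62 over all loci. Within the range the minus strand had 17 of its loci (38.6%) at 60 to 69 bases and 3 (6.82%) at 70 to 79, against 16 (22.2%) and 17 (23.6%) on the plus strand. At 80 bases or more there were 7 minus-strand loci (15.9%) and 6 plus-strand loci (8.33%). The longest minus-strand loci, at 88 bases, were those on transcript_34 and transcript_1628 (81 to 169), with 0 treated reads each and 3 and 1 control reads. Of the minus-strand loci, those with treated reads only had a median span of 61 and those with control reads only of 64.

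**Figure D5:**
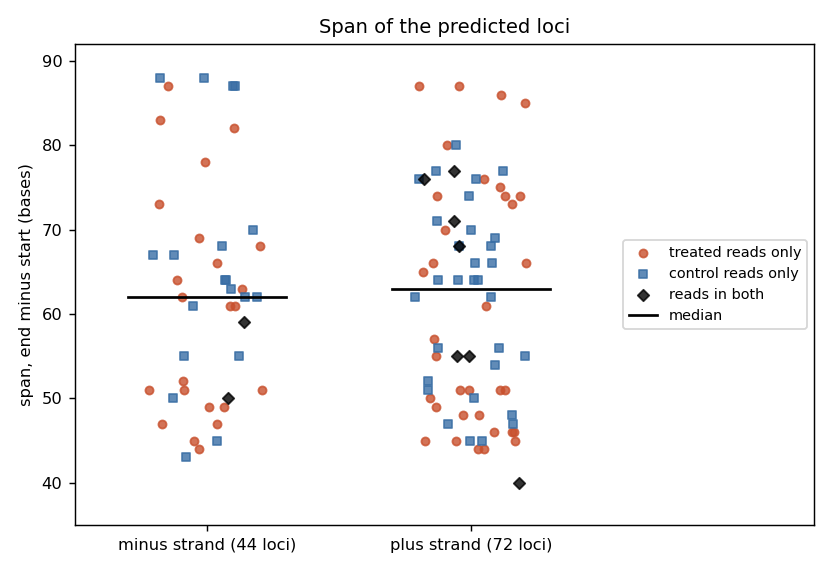
Span of each predicted locus (vertical axis, end minus start in bases) on the minus strand and the plus strand, with the marker showing the library that held its reads and a line at the median. Points are spread sideways for legibility. The medians are 62 and 63 bases. The minus strand has few loci between 70 and 79 bases, though the counting intervals of the shares in that class overlap between the strands.

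Span followed coverage little on the minus strand. Spearman's rho of span with summed reads was -0.078 over the 44 minus-strand loci and -0.19 over the 72 plus-strand loci, each a description across loci that share both libraries. Loci with at least 10 reads had a median span of 63 bases on the minus strand, over 11 loci, and of 55 on the plus strand, over 37 loci. Those with under 10 reads had medians of 62 on the minus strand and 66 on the plus strand. The intervals of both minus-strand medians, 44 to 78 and 55 to 67 bases, overlapped. So did those of the plus-strand medians, 50 to 64 and 62 to 71 bases. No interval was computed for either rho, so these values do not show that the strands differ.

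Each minus-strand locus lay on a transcript of its own. None of the 44 transcripts carried a further predicted locus on either strand, whereas the 72 plus-strand loci lay on 67 transcripts, 5 of which carried more than 1. No predicted locus therefore had a partner on the opposite strand of the same transcript. The median start was position 212 on the minus strand (range 9 to 897) and 135.5 on the plus strand (range 3 to 882). Starts beyond position 500, a limit chosen after the values were seen, were found at 9 minus-strand loci (20.5%) and 3 plus-strand loci (4.17%). The sources used here do not give transcript lengths, so these positions cannot be read as distances from a transcript's other end.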

How the data were processed

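Per the labels' protocols, a NEBNext kit turned total RNA of mature leaf into small RNA libraries, which were sequenced from a single end. Adapters can be trimmed with cutadapt, the only tool in the submitters' processing notes. The mapper, miRNA predictor, transcript set and filters were not given in the sources used here, and no file header names them. The authors' deposited table gives whole read counts for each predicted locus, not normalized, with 1 column per library, headed by the code in the sample title. Its only entry without a transcript position, osa-miR5523 (2 treated reads, 0 control reads), stayed in the totals. The deposited lists of conserved miRNAs were not used here.

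Shares are counts as a percent of the reads at all entries of that library. They carry exact binomial (Clopper-Pearson) 95% intervals, ratios exact conditional ones and medians order-statistic ones. The reads have no molecular identifiers and may be PCR copies, so counting error is all that the intervals and floors cover. No ratio was computed where both counts were at or under the floor of 3 reads.

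Loci named were those with reads in both libraries, the 8 with most reads in each library (ties taken by name) and those of extreme span, with others marked or given to account for every locus. Members and rules were chosen with earlier results of these data known. TMM factors came from edgeR 4.0.16 in R 4.3.3, and all else from scipy 1.17.1 and numpy 2.4.6 in Python 3.11.15, with figures by matplotlib 3.10.9.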

Additional observations from a re-analysis of the deposited data

How the results depend on the processing

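The treated to control ratio of the minus-strand shares, 3.24 by totals, was 2.66 without transcript_2855 in the totals, 6.56 with TMM factors, 6.51 with the median of ratios and 4.86 with the total of the 9 loci in both libraries. It fell below 1 without transcript_3916, to 0.344, and to 0.453 with that locus also out of the total, a setting chosen after seeing the data. Without transcript_3916 it stayed below 1 under all 5 scales, from 0.283 to 0.698. That rested largely on transcript_190 and transcript_477, and over the remaining minus-strand loci the larger share depended on the scale. The plus-strand ratio, with all its loci kept, ran from 0.655 to 1.62 and so changed sides of 1. These sets are unlike, since with all its loci kept the minus-strand ratio stayed above 1, from 2.66 to 6.56. TMM factors and the median of ratios moved all log2 ratios up by 1.02 and 1.01. The minus-strand share of treated reads, 26.8%, was 2.85% without transcript_3916, 3.75% with it also out of the total and 42.5% without transcript_2855 in the total, and the share of control reads, 8.27%, was 16.0% without transcript_2855. Higher minus-strand loci numbered 3 by totals, 7 under the TMM and the median-of-ratios scale alike, 6 with the total of shared loci and 6 with the exact interval alone. Lower loci numbered 4, and 2 with a minimum of 50 reads, where fewer loci were measured. The median reads per minus-strand locus was 1, and 11 over loci with at least 2 reads. Of the other 21 recomputed values of these results, all kept their direction and lay inside the interval of the value by totals or within 1.5 times its count. Among 11 named loci recomputed under 4 other scales, 13 of 44 ratios moved beyond their interval or bound and none that was called changed sides of 1. These scales all rest on predicted loci, since library depth is unknown. For these moves the cause was not tested, beyond the construction of each scale. No paired analysis was possible because each group has a lone library.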
